A study of Mus musculus with 6 samples.

Results

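Hhip fibroblasts of the aged mouse lung were chosen by their counts, as barcodes with at least 2 unique molecules (UMIs) of Hhip, at least 2 UMIs in the sum of Aspn, Lgr6, Fgf18 and Cdh4, and none of Epcam (epithelium), Cdh5 (endothelium) or Ptprc (leukocytes). Of 88616 barcodes that passed the quality filter (a minimum of 500 genes and of 1000 UMIs, and no more than 15% of UMIs from mitochondrial genes), 1326 met this rule. The selection was made on measured expression, so the levels of those 8 genes are given as a description and were not tested as findings.

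Hedgehog ligands are made by epithelial cells of the lung and are received by the mesenchyme around them. The receptor Ptch1 holds the transducer Smo in check, and ligand binding lifts that hold and activates the Gli transcription factors, while Boc, Cdon and Gas1 act as co-receptors. Hhip is a membrane-anchored and secreted decoy that binds the same ligands and is itself a target of the pathway. Aspn is a small leucine-rich matrix proteoglycan, Lgr6 a receptor for R-spondins, which strengthen Wnt signals, Fgf18 a fibroblast growth factor that acts in lung and skeletal development, and Cdh4 a cell adhesion cadherin. Cells with this combination are known from lung mesenchyme near the conducting airways and alveolar ducts, where they stand close to smooth muscle. The position of the cells was lost on dissociation and was not measured here.

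The data came from lungs of 21-month-old male C57BL/6 mice, 3 labelled p16-DTR and 3 controls. The p16-DTR mice carried p16-CreERT2/R26-LSL-DTR, an inducible Cre driven by the p16 (Cdkn2a) gene and a diphtheria toxin receptor that Cre switches on at the Rosa26 locus, and the controls carried p16-CreERT2 alone, so that both groups carry the Cre allele. All mice received tamoxifen (TAM) for 5 days, diphtheria toxin (DT) for 5 days starting 2 weeks later, and 2 weeks of recovery. Each library mixed 20000 CD45- and 9000 CD45+ sorted cells, so leukocyte shares were set by the sort. The labels number the libraries but identify no animal or batch beyond that, and p-values measure the spread between these libraries.

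The 6 libraries held 13482 to 17332 barcodes with median depths of 16587.5 to 18149 UMIs per barcode, and any 2 libraries shared 59 to 94 barcode sequences, 0.392% to 0.586% of the smaller library. Cdkn2a, whose expressing cells the p16-DTR design targets, went against the direction that its labels imply. It reached 7.08, 8.56 and 7.30 UMIs per 1000000 UMIs (CPM) in the whole libraries labelled p16-DTR and 1.15, 2.59 and 2.83 in controls. The reporter transcript tdTomato was counted 89, 75 and 94 times in the p16-DTR-labelled libraries and not at all in controls. The groups are therefore called the p16-DTR-labelled libraries and the control libraries, and no direction below should be read as the effect of fewer Cdkn2a-expressing cells.

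Members numbered 247, 158 and 141 in p16-DTR libraries 1 to 3 and 362, 175 and 243 in control libraries 1 to 3. Their median depths were 18639 to 22409 UMIs, against 17642 to 19290 in all barcodes without Ptprc. Hhip was counted 48 times in the median member, with 375 UMIs in the highest. Among members just inside the rule, 85 had exactly 2 Hhip UMIs and 70 had exactly 2 UMIs of the other 4 markers. Just outside it, 159 barcodes had 1 Hhip UMI with enough of the other markers, and 108 had enough Hhip with 1 UMI of the others. As a background, at least 2 Hhip UMIs were found in 0.443% of barcodes with 2 or more Ptprc UMIs and in 0.445% of those with 2 or more Cdh5 UMIs, at median depths of 15641 to 17349.5 UMIs. Among mesenchymal cells the share was 6.36% of barcodes with alveolar fibroblast markers, 23.6% with adventitial markers and 33.7% with smooth muscle markers. Simulated doublets marked 25 of the 1326 members.

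Many members also carried marker genes of other fibroblasts. Of the members, 551 (41.6%) also met a marker rule for alveolar fibroblasts (Inmt with Tcf21, Scube2, Npnt or Ces1d) or for adventitial fibroblasts (Col14a1 with Pi16 or Dpp4). These had a median of 8 Hhip UMIs, 70 UMIs of the alveolar fibroblast methyltransferase Inmt and 3 of the adventitial gene Pi16, at a median depth of 29802 UMIs. The other 775 members (58.4%) had a median of 85 Hhip, 31 Aspn, 15 Cdh4 and 6 Lgr5 UMIs and 0 of both Inmt and Pi16, at a median depth of 16435 UMIs. At least 20 Hhip UMIs were found in 686 (88.5%) of the 775 and in 150 (27.2%) of the 551, so the parts overlapped in Hhip. Lgr6 stood at 146 ± 30.9 CPM in the summed counts of the 775 cells and at 14.0 ± 7.74 in those of the 551 (SD, n = 6 libraries), and Fgf18 at 413 ± 112 and 40.4 ± 17.3. All of these values belong to genes that chose the members or split them, Lgr5 excepted, and are a description that does not show separate kinds of cell. The 775 cells are called the narrower set below. They were set apart after the levels of Inmt and Pi16 had been seen, and results are given for all members first and then for them.

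**Figure D1:**
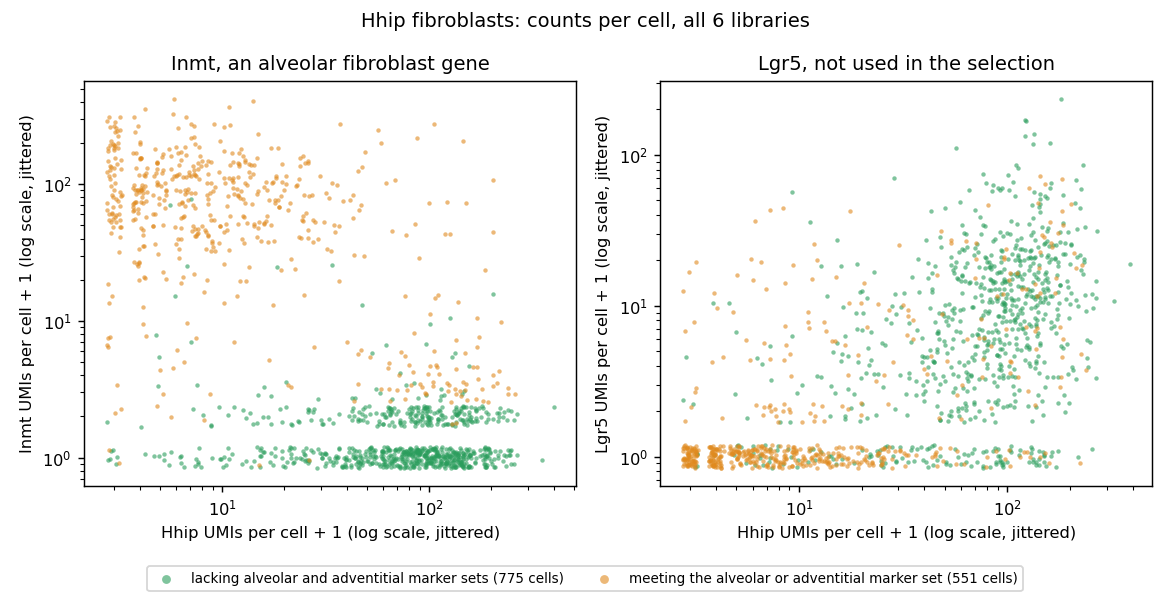
UMIs per cell of Hhip (x axis) against Inmt (left, y axis) and Lgr5 (right, y axis), each plus 1 on a log scale with jitter, for all 1326 members. The 551 cells that meet the alveolar or adventitial marker rule lie mostly at low Hhip with a median of 70 Inmt UMIs, and the 775 others lie mostly at high Hhip with a median of 0 Inmt and 6 Lgr5 UMIs.

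Smooth muscle genes ran through the narrower set. In it, 361 of 775 cells (46.6%) met a rule of at least 2 UMIs of Myh11, the smooth muscle myosin heavy chain, and 2 of Cnn1, Actg2, Des or Lmod1. Their share per library was 50.6%, 35.5% and 64.6% in the p16-DTR-labelled libraries and 37.3%, 52.4% and 47.0% in controls, so the groups overlapped. Myh11 averaged 414 ± 138 CPM in the narrower set against 2627 ± 437 in smooth muscle cells of the same libraries that had at most 1 Hhip UMI (SD, n = 6). Acta2, smooth muscle actin, stood at 914 ± 92.9 against 4445 ± 651. Pdgfra, a receptor that marks alveolar fibroblasts, stood at 30.3 ± 4.33 in the narrower set and at 1351 ± 78 in alveolar fibroblasts. In the narrower set of every library, 6 of 7 chondrocyte markers and 6 of 6 mesothelial markers stayed under 5 CPM.

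Several genes that the rule did not use stood out in level. Members were compared with alveolar fibroblasts (16054 cells), adventitial fibroblasts (1309) and smooth muscle cells (818) that lacked Hhip or, for smooth muscle, had at most 1 Hhip UMI. Because all of these cells were picked by marker genes, the values carry no test. Of 3500 genes with at least 50 CPM in the members of every library, 68 stood over 2 times and 19 over 5 times above the highest of the comparison types. The 10 genes of the highest ratio, none of them in the rule, were each highest in the members in 6 of 6 libraries.

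The leader was Cacna1e, the pore of an R-type voltage-gated calcium channel, at 109 ± 33.1 CPM in members against at most 0.952 ± 1.36 in any comparison type, a ratio of 115. Kctd16, an auxiliary subunit of GABA-B receptors, stood at 435 ± 195 against at most 10.6 ± 5.23. The cytochrome P450 gene Cyp2e1 stood at 347 ± 106 against 12.7 ± 8.47, and Pappa2, a protease that cleaves insulin-like growth factor binding proteins, at 339 ± 254 against 14.5 ± 14.2. The sodium-calcium exchanger Slc8a3 (180 ± 33.3), the secreted Wnt inhibitor Wif1 (65.5 ± 11.3), the actin-nucleating formin Fhod3 (111 ± 21.2) and the R-spondin receptor Lgr5 (353 ± 115) followed. Zfp385b, a zinc finger gene, and Efnb2, the membrane ligand ephrin-B2, closed the list at 127 ± 16.3 and 153 ± 72.0. Without the other 551 cells these levels were higher, with Lgr5 at 699 ± 271 and Cacna1e at 230 ± 66.6. Of these 10 genes, Pappa2 and Kctd16 were later called between the groups in the narrower set. Kctd16 stood there at 682, 544 and 365 in the p16-DTR-labelled libraries against 1586, 1069 and 1194 in controls (log2 difference -1.22 ± 0.21 SE, edgeR adjusted p = 0.0272), and every control lay above every library labelled p16-DTR.

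**Figure D2:**
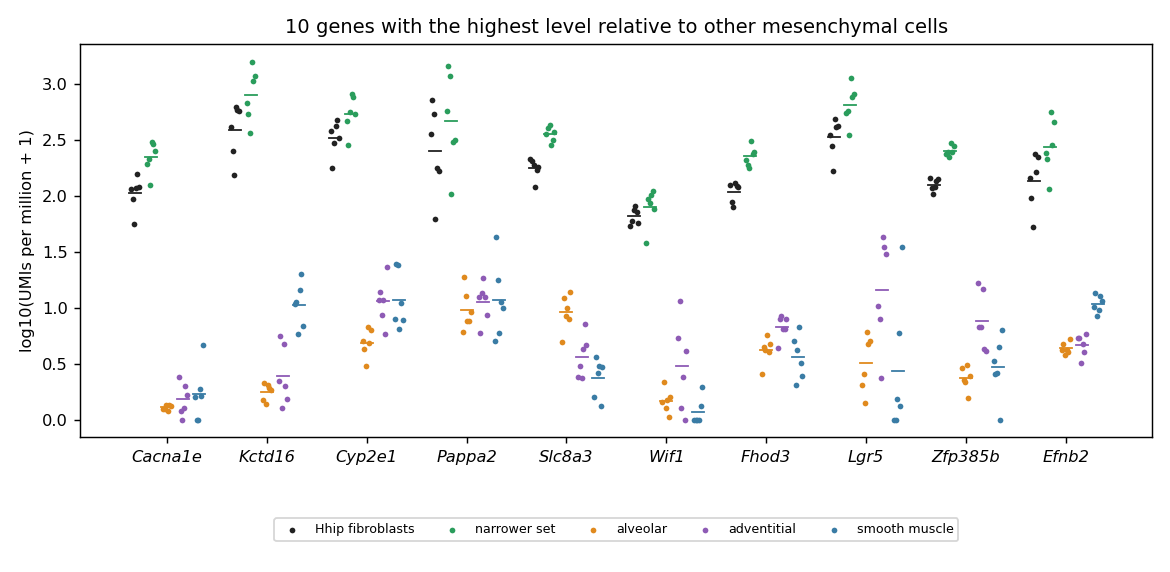
Levels, as log10 of CPM plus 1, of the 10 genes with the highest ratio to alveolar fibroblasts, adventitial fibroblasts and smooth muscle cells. Other mesenchymal cells were not compared. Each point is 1 of 6 libraries and each bar the mean of the log values. All members (black) and the narrower set (green) lie above alveolar, adventitial and smooth muscle cells for every gene shown.

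The share of these cells did not differ detectably between the groups. Members made up 2.78%, 1.82% and 1.71% of barcodes without Ptprc in the p16-DTR-labelled libraries and 3.18%, 2.05% and 2.43% in controls. The means were 2.11% ± 0.589 and 2.55% ± 0.575 (SD, n = 3 each), a difference of -0.448 percentage points (exact two-sided permutation test, p = 0.5; 3 against 3 cannot give less than 0.1). p16-DTR library 1 lay above 2 of the 3 controls. The 95% Wilson interval of p16-DTR library 1 was 2.46% to 3.15% and that of control library 3 was 2.14% to 2.75%, and such intervals cover counting error only. The narrower set made up 1.30% ± 0.497 against 1.44% ± 0.213 (exact permutation p = 0.7). With each cell thinned to 5000 UMIs the shares of members were 1.71% and 1.98% (exact permutation p = 0.6).

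**Figure D3:**
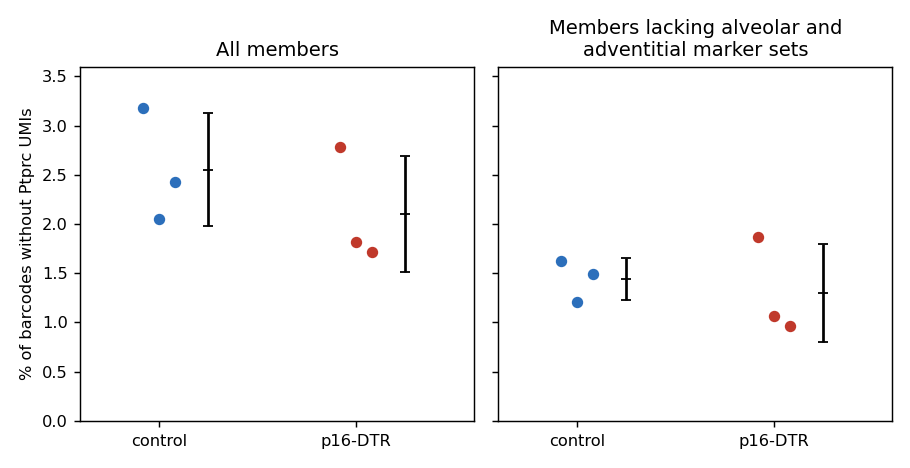
Percent of barcodes without Ptprc UMIs that were members (left) or belonged to the narrower set (right); points are libraries, bars the mean with SD over 3 libraries. The groups overlap in both panels, with all members at a mean of 2.11% in p16-DTR-labelled libraries and 2.55% in controls.

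Cdkn2a in the members followed the whole libraries. It was counted 30, 18 and 8 times in the members of p16-DTR-labelled libraries and 0 times in those of all 3 controls, at least 26.7-fold higher when the pooled controls are set at 3 counts. The UMIs came from 38 of 546 members labelled p16-DTR (6.96%) and 0 of 780 control members, which allows a share of up to 0.385% of cells with a UMI and sets no limit on cells that express the gene. Both this share and the 26.7-fold pool the libraries and leave out the spread between them, and the share covers counting error only. Of these 38 cells, 27 belonged to the members that met the alveolar or adventitial rule. The narrower set held 16 Cdkn2a UMIs against 0. Over all members it was not called (edgeR adjusted p = 0.0579), and it passed the filter on low counts only through the group where it was high. Cdkn1a, the p21 inhibitor of cyclin-dependent kinases, stood at 335 ± 68.4 and 314 ± 12.2 CPM, with overlapping libraries (adjusted p = 0.752, edgeR). Hbegf, the mouse counterpart of the human gene whose protein binds diphtheria toxin, stood at 5.02 ± 2.55 and 4.86 ± 1.48 (adjusted p = 0.935, edgeR), and tdTomato gave 3 UMIs in all, each in a library labelled p16-DTR.

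Across all members no gene passed the test. With UMIs summed per library, 0 of 12443 genes (0.0%) were called by edgeR at an adjusted p under 0.05, 1808 (14.5%) had an unadjusted p under 0.05, and DESeq2 called 179. The smallest adjusted p was 0.0574, and 37 genes lay under 0.06. In 20.8% of the genes tested the 3 libraries of one group lay all above or all below those of the other. The count was 41 without p16-DTR library 1, 7 without p16-DTR library 2, 6 without control library 2 and 0 without any other.

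Irf1 and Cxcl1 were among several genes that shared this smallest adjusted p, with Kcnj8, Tube1 and Plxdc1 beside them. Irf1, a transcription factor induced by interferons, stood at 172, 147 and 161 CPM in the p16-DTR-labelled libraries and at 298, 302 and 264 in controls (log2 difference -0.83 ± 0.09 SE, adjusted p = 0.0574). Cxcl1, a neutrophil-attracting chemokine, stood at 49.8, 32.7 and 46.9 against 172, 106 and 114 (-1.58 ± 0.21, adjusted p = 0.0574). The antiviral modifier Isg15 stood at 12.1, 12.9 and 10.2 against 25.2, 37.1 and 22.5 (adjusted p = 0.064), and Ptch1 at 137, 139 and 102 against 202, 222 and 191 (adjusted p = 0.080). For all 4 genes the groups did not overlap, and none was called. Cxcl1 and Isg15 did overlap in the narrower set between groups. Of 31 interferon response genes tested over all members, 11 were lower and 0 higher at an unadjusted p under 0.05, against 7.96% lower and 6.57% higher of all genes tested, and the median log2 difference of the list was -0.27, with 23 of 31 negative against 50.3% of all genes. Marker lists of other cells varied in the same summed counts. The leukocyte list lay at 65.6 to 76.9 CPM in p16-DTR-labelled libraries against 47.4 to 61.3 and the pericyte list at 426 to 476 against 290 to 324, both with no overlap, and the cardiac list, also with no overlap, at 3.5 to 11.2 against 24.4 to 112. Without Lyz2, Kcnj8 or Actc1 respectively, each of the 3 lists overlapped. The mesothelial list ranged from 0.292 to 104 against 46.4 to 128. Their part in these differences was not tested.

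In the narrower set, 161 of 10762 genes (1.5%) were called, 73 with higher levels under the p16-DTR label (0.678%) and 88 with lower levels (0.818%). An unadjusted p under 0.05 was found for 1872 (17.4%), 8.07% of all tested on the higher and 9.32% on the lower side. The counts called in gene lists below stand against this background of 1.5%. Some lists hold genes of the selection rule (Hhip, Fgf18, Lgr6 and Aspn) or of the marker rules that set these cells apart (Scube2, Col14a1 and Npnt). Counts, medians and signs of those lists draw partly on values that chose the cells. All 161 had groups that did not overlap, as did 22.7% of all genes tested. Single libraries moved this number. It came to 262 without p16-DTR library 1, 38 without p16-DTR library 2, 31 without p16-DTR library 3, 15 without control library 1 and 68 without control library 2. Of the 161 genes, 11 were called in each of the 6 fits that left out 1 library, 6 of them higher (Adamtsl2, Crispld2, Eln, Fam129b, Kcnj8 and March3) and 5 lower (Ccbe1, Col4a6, Ptprd, Slit2 and Tbx3os1). Without the cells that met the smooth muscle rule 15 genes were called, 14 of them shared with the 161, and the direction was the same for all 153 of the 161 that could still be tested. These cells are a part of those that gave the 161, so the kept direction is no independent support.

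Most lists of other cell types' markers overlapped between the groups. The summed alveolar list of the narrower set lay at 906 to 1005 CPM against 951 to 1042, the adventitial list at 1888 to 3382 against 2508 to 2864 and the smooth muscle list at 3197 to 3996 against 3120 to 4082. Inmt, Tcf21, Scube2, Npnt and Ces1d of the alveolar list and Col14a1, Pi16 and Dpp4 of the adventitial list had served to remove cells. Overlap in those lists was therefore partly set by that choice and does not show equal admixture. The leukocyte list (9 genes) did not overlap, at 77.4 to 85.4 in the p16-DTR-labelled libraries against 45.6 to 57.3 in controls. Its lymphocyte markers Cd3e, Cd79a and Nkg7 stayed under 5 in every library, and the other 6 genes did not. Among these Lyz2, a macrophage lysozyme singled out afterwards, was called higher at 43.5, 42.7 and 37.3 against 22.2, 25.7 and 25.6 (adjusted p = 0.0441, edgeR, called in 0 of the 6 fits that left out a library). Without Lyz2 the other 8 genes still did not overlap, at 40.1 to 42.7 against 19.9 to 35.0. The part of leukocyte RNA in the other results was not tested.

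The genes called in all 6 fits that left out a library included a potassium channel, elastin and a basement membrane collagen. Without the cells of the smooth muscle rule, 15 genes were called, only 4 of them higher. Some of the 6 higher genes called in every such fit were therefore not called there. Kcnj8, the pore of a potassium channel that ATP closes, stood at 397, 505 and 539 CPM in the p16-DTR-labelled libraries and at 150, 246 and 191 in controls (log2 difference 1.35 ± 0.18 SE, adjusted p = 0.0123). Abcc9, its regulatory sulfonylurea receptor subunit and its neighbour on chromosome 6 (Kcnj8 at 142564837-142571614 and Abcc9 at 142587862-142702315, GRCm38), was called with it at 631, 681 and 680 against 430, 501 and 475 (0.55 ± 0.10, adjusted p = 0.0303). Both were singled out after their values were seen, and Abcc9 was called in 1 of the 6 fits that left out a library. Kcnj8 also belongs to the pericyte marker list, which summed to 632 to 739 against 414 to 447. The other 7 genes of that list overlapped between groups, at 149 to 235 against 201 to 269, and the pericyte genes Trpc6 and Higd1b stayed under 5.

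Among matrix genes, Eln, the elastin of elastic fibres, stood at 1535, 1235 and 1401 against 755, 542 and 660 (1.14 ± 0.13, adjusted p = 0.00763). Each library labelled p16-DTR lay above each control, and Eln was called in all 6 fits that left out a library. Col4a6, a basement membrane collagen chain encoded on the X chromosome, stood at 124, 103 and 114 against 338, 245 and 230 (-1.21 ± 0.15, adjusted p = 0.0121), and Lama4, a laminin chain of the basement membrane, at 548, 538 and 486 against 1220, 851 and 850 (-0.85 ± 0.15, adjusted p = 0.0263). Of 26 collagens tested, against 1.5% of all genes, Col4a6 was the only one called, and the median log2 difference was -0.16. Of 39 other matrix and elastic fibre genes, Eln was called higher and Lama4 lower, with a median of 0.10 against -0.0029 over all genes tested. The metalloproteases Adamts9 (716, 1021 and 1044 against 154, 343 and 404) and Adamts10 (361, 458 and 408 against 220, 187 and 254) were the 2 called of 25 proteases and inhibitors, both higher, against 0.678% of all genes. P3h2, a prolyl hydroxylase that modifies collagen chains, was lower at 89.3, 56.3 and 56.6 against 171, 127 and 122.

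Of 15 hedgehog genes tested in the narrower set, the co-receptor Boc alone was called, against 1.5% of all genes tested, at 86.4, 78.3 and 53.02 CPM in the p16-DTR-labelled libraries against 155, 152 and 114 (log2 difference -0.88 ± 0.18 SE, adjusted p = 0.0459). It was called in 2 of the 6 fits that left out a library. The list's median was -0.36, and 13 of 15 members had a negative difference, against 50.5% of all genes tested. Hhip, which chose the cells, is among the 15, and the list also holds Scube2, used to set the narrower set apart. These list values are therefore a description. Ptch1 stood at 51.2, 33.7 and 38.0 against 75.7, 128 and 69.4 (-1.06 ± 0.24, adjusted p = 0.0616) and Gli1 at 16.3, 12.3 and 17.9 against 17.3, 21.0 and 23.9 (adjusted p = 0.425). Hhip itself stood at 5348, 5407 and 4903 against 6441, 5298 and 5632, and the groups overlapped.

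Of all genes tested 1.5% were called, and the lists of growth factor genes are set against that share. Fgf2, a fibroblast growth factor, was the 1 called of 15 FGF genes, at 187, 318 and 288 against 93.1, 120 and 117 (1.31 ± 0.19, adjusted p = 0.0145). Fgf18, a gene of the selection rule, stood at 439, 585 and 445 against 263, 319 and 428. Follistatin (Fst), which binds activins, was the 1 called of 42 TGF-beta and BMP genes, from 40, 10 and 23 UMIs against 1, 2 and 2. Fst passed the filter on low counts only through the group where it was high, so its call is no support for a change of the list. Of 12 genes of the insulin-like growth factor system, Pappa2 (578, 1457 and 1189 against 104, 302 and 316; 2.21 ± 0.41, adjusted p = 0.0331) and Igfbp4, a binding protein that the related protease Pappa cleaves (533, 597 and 637 against 341, 446 and 372), were called higher. Tcf7l2, the transcription factor through which beta-catenin acts, was the 1 called of 32 Wnt genes, at 533, 692 and 620 against 229, 334 and 360. Lgr5 stood at 552, 571 and 349 against 1131, 766 and 822 (adjusted p = 0.071) and was not called. None of 6 PDGF genes was called. Of 7 NOTCH genes Maml2, a coactivator, was called lower, and of 34 axon guidance genes Slit2, a ligand of Robo receptors, at 99.4, 90.6 and 73.1 against 200, 176 and 246 (-1.18 ± 0.16, adjusted p = 0.0123).

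Chrm2, the M2 muscarinic acetylcholine receptor, stood at 88.5, 51.8 and 22.9 CPM against 191, 236 and 132 in controls (-1.65 ± 0.35, adjusted p = 0.0474). In smooth muscle cells of the same libraries Chrm2 stood at 81.6, 38.9 and 42.9 against 29.7, 27.8 and 22.1, the other way, but was not called. Of 11465 genes tested in smooth muscle, 0 were called. Of 11754 genes, 0 had another group effect in the narrower set than in smooth muscle. Chrm3, the M3 muscarinic receptor through which acetylcholine contracts airway muscle, and Adra1a, an alpha-1 adrenergic receptor, were singled out after their values were seen. Chrm3 stood at 101, 93.8 and 114 against 318, 165 and 193 (-1.10 ± 0.22, adjusted p = 0.0381). Adra1a stood at 71.5, 48.5 and 35.1 against 172, 98.1 and 148 (-1.34 ± 0.25, adjusted p = 0.0342). Its level was higher in alveolar fibroblasts, at 499 ± 143, than in the narrower set, at 95.6 ± 54.9 (SD, n = 6). The part of alveolar fibroblast RNA in its difference was not tested. Each of these 3 receptor genes was called in 2 of the 6 fits that left out a library. Of 27 contractile genes, against 1.5% of all genes, Cacna1c, the pore of the L-type calcium channel, was called higher (1625, 2282 and 2504 against 1038, 1308 and 1335) and Actc1, cardiac actin, lower. Actc1 passed the filter on low counts only through the controls, where it was high.

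The smooth muscle genes Myh11, Acta2 and Des were not called. Kcnma1, the large calcium-activated potassium channel, was also singled out afterwards and was lower at 271, 198 and 262 against 388, 364 and 392.4 (adjusted p = 0.0397). The cyclic nucleotide phosphodiesterase Pde10a was higher at 4855, 8855 and 7193 against 1107, 2201 and 3500, as was Pde4d, singled out afterwards, at 1646, 1550 and 2285 against 668, 1055 and 907. For both phosphodiesterases every library labelled p16-DTR lay above every control.

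Actc1 rested on few cells. In the members of the control libraries, 20 of 780 cells held 572 UMIs, 77.6% of them in 5 cells, and 3 of 546 cells labelled p16-DTR held 4 UMIs. Smooth muscle cells of these libraries had 732 ± 170 CPM of Actc1. The other 8 cardiac markers summed to 2.1 to 11.97 in the narrower set labelled p16-DTR and 10.9 to 51.9 in controls, with Myl7 at 0 in every library.

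**Figure D4:**
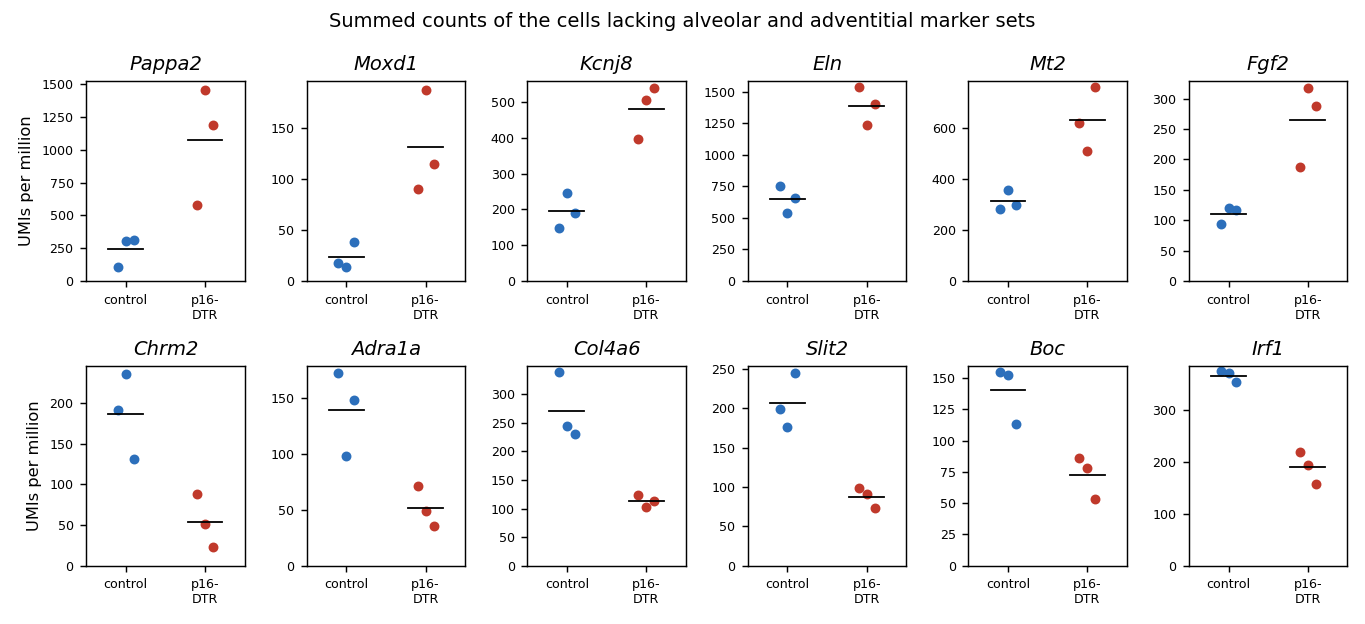
CPM of 12 genes in the summed counts of the narrower set; each point is a library and each bar the mean of 3. In the upper row 6 genes lie above and in the lower row 6 lie below the controls, with no overlap between groups.

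Of 30 genes tested of the glucocorticoid and clock list, 3 were called higher and 2 lower, against 1.5% of all genes called. Mt1 and Mt2, metallothioneins that bind zinc and copper, were both higher. Mt2 stood at 620, 509 and 761 against 283, 358 and 299 (1.05 ± 0.15, adjusted p = 0.0127) and Mt1, singled out afterwards, at 2538, 1961 and 2379 against 1608, 1675 and 1365 (0.61 ± 0.12, adjusted p = 0.0371). Errfi1, an inhibitor of EGF receptor signalling, was higher at 1161, 975 and 842 against 347, 464 and 614. Cirbp, a cold-inducible RNA-binding protein, was lower at 51.2, 30.4 and 50.9 against 111, 106 and 103, and so was Nr3c2, the mineralocorticoid receptor, at 123, 146 and 115 against 215, 254 and 209. The list's median was 0.06.

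The 2 metallothionein genes lie close together on the same strand of chromosome 8, and the 250 bases before their RefSeq starts (GRCm38.p6, plus strand) are shown because both genes were called. Capitals mark matches on either strand to the core letters of the metal response element, searched as TGCGCNC and TGCACNC.
Mt2, chr8:94172368-94172617: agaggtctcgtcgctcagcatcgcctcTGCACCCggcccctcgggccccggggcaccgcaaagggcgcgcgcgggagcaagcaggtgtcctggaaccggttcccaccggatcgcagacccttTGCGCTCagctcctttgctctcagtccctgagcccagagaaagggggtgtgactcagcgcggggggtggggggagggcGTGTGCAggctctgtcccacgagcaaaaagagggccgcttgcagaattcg
Mt1, chr8:94178839-94179088: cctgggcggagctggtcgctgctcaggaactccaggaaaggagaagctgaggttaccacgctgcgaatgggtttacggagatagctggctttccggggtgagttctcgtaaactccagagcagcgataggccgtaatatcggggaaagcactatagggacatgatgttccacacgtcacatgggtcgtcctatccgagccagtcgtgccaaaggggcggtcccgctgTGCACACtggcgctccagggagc
The Mt2 window held 3 matches and the Mt1 window 1. These counts depend on the RefSeq start used, and bases outside the windows were not searched. They do not show that either gene has more such elements than the other. Of 27025 genes with such a window, 21.3% held at least 1 match and 1.28% at least 3. A match describes letters and is not a measured binding site.

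The remaining lists are also set against the 1.5% of all genes called. Il6ra (54.1, 80.2 and 59.5 against 23.0, 30.4 and 38.2) and Il17ra (52.98, 82.2 and 81.0 against 27.9, 28.3 and 33.0), receptor chains for interleukins 6 and 17, were higher and Il1rap, a co-receptor for interleukin 1, lower among 31 cytokine and chemokine genes. Irf1 was the 1 called of 28 interferon response genes, at 220, 194 and 158 against 375, 371 and 354 (-0.89 ± 0.13, adjusted p = 0.0127), and 21 of the 28 had a negative difference. Hsph1, a heat shock protein, was the 1 called of 37 immediate early and heat shock genes. None of 23 senescence and p53 genes was called, with a median of 0.14, and 0 were higher and 5 lower at an unadjusted p under 0.05, against 8.07% and 9.32% of all genes. Of the targeted and construct genes, Hbegf alone could be tested and was not called.

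Among the 12 genes with the largest increase, Moxd1, a monooxygenase of the dopamine beta-hydroxylase family, stood at 90.7, 188 and 115 against 17.7, 13.6 and 38.6 (2.51 ± 0.36, adjusted p = 0.0127). Slc16a3, a lactate exporter, stood at 38.5, 96.4 and 153 against 19.2, 13.1 and 20.8. Egln3 and Ndrg1, hypoxia-inducible genes singled out afterwards, were also higher (adjusted p = 0.0127 and 0.0371). No list of hypoxia genes was drawn up, so a hypoxia response was not tested. Dgkg, Cbarp, Adamts9, Pde10a, Olfr1033, Fam129b, Hsph1, Pappa2, Fst and Hr made up the rest of the 12. Cbarp rested on 21 to 35 UMIs per library against 2 to 9, so it passed the filter on low counts only through the group where it was high, and it overlaps Stk11 and Atp5d.

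Among the 12 with the largest decrease, Ccbe1, a secreted protein that promotes lymphatic vessel growth, stood at 22.1, 18.1 and 20.1 against 69.3, 58.8 and 53.4 (-1.53 ± 0.17, adjusted p = 0.00547). Over all members Ccbe1 stood at 57.8, 55.1 and 109 against 84.7, 82.6 and 82.8, with overlap (-0.17 ± 0.22, adjusted p = 0.771). In the narrower set Ccbe1 was called in every fit that left out a library and without the cells of the smooth muscle rule. Plxdc1, Cdc42ep3 and Map2k6, a kinase that activates p38, were lower by -1.60, -1.50 and -1.50 on the log2 scale. Cubn, Dglucy, Stxbp6, Tet1, Tmem178 and Tube1 were lower on fewer counts, from 0 to 27 UMIs in each library labelled p16-DTR, and Actc1 and Chrm2 completed the group. A gene with 0 UMIs in such a library could pass the filter on low counts only through the controls, where it was high.

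The group difference in Hhip fibroblasts was then set against that in other mesenchymal cells of the same libraries. Alveolar fibroblasts on their own gave 11 calls among 16653 genes (0.0661%). Over all members, 3 of 16122 genes (0.0186%) had another group effect than in alveolar fibroblasts, by a test of the interaction within libraries, and the count was 16 without p16-DTR library 1, 12 without p16-DTR library 2 and 1 without control library 1. Actc1 differed by -10.17 ± 0.88 on the log2 scale (adjusted p = 0.00722, edgeR), Nxph1, a secreted neurexin ligand, by -4.59 ± 0.46 (adjusted p = 0.0125) and Myo1f, an unconventional myosin, by 0.93 ± 0.11 (adjusted p = 0.0331). Nxph1 was counted 7, 4 and 1 times against 123, 26 and 125 in the members, of which the narrower set held 2 UMIs in all. Nxph1 and Actc1 were counted in the members almost only in controls, so these values rest on the group where they were high.

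In the narrower set 128 of 15954 genes (0.802%) differed in this way. March3, a membrane ubiquitin ligase, stood at 305, 328 and 405 CPM against 162, 157 and 163 in the narrower set and at 113, 109 and 115 against 148, 128 and 115 in alveolar fibroblasts, a difference of effects of 1.34 ± 0.14 (adjusted p = 0.00509, edgeR). P3h2 was near its floor in alveolar fibroblasts, at 1.503 to 2.13 against 0.784 to 1.09, and the effects differed by -2.08 ± 0.23 (adjusted p = 0.00509). Ccbe1 stood at 275, 220 and 270 against 305, 333 and 283 in alveolar fibroblasts, and the effects differed by -1.28 ± 0.16 (adjusted p = 0.00864). Myo1f differed by 1.26 ± 0.15 and Actc1 by -10.91 ± 1.28 (adjusted p = 0.0070 for both).

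**Figure D5:**
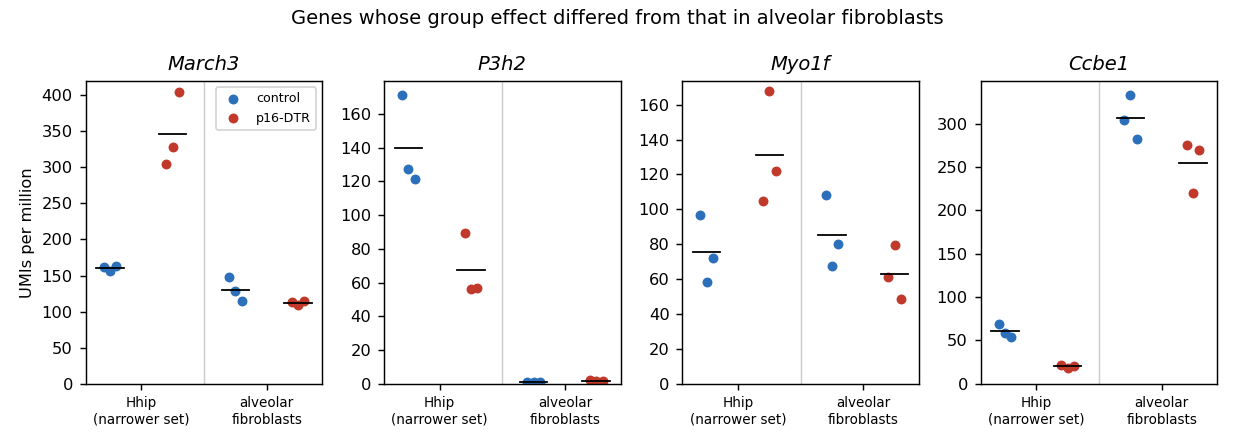
CPM of 4 genes in the narrower set and in alveolar fibroblasts of the same libraries; points are libraries, bars the mean of 3. March3 separates the groups in the narrower set, at 305 to 405 against 157 to 163, and overlaps in alveolar fibroblasts at 109 to 115 against 115 to 148.

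No gene was called as having another group effect than in smooth muscle cells. The test called 0 of 12782 genes (0.0%) for all members, with 902 at an unadjusted p under 0.05, and 0 of 11754 for the narrower set, with 1158. DESeq2 was not run for this comparison. Smooth muscle cells numbered 81 to 205 per library and gave 0 calls on their own among 11465 genes, with 700 at an unadjusted p under 0.05. The count with no filter on low counts was 33 for all members. A count of 0 does not show that the effects in these 2 cell types were alike.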

How the data were processed

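The authors deposited 1 filtered matrix of raw UMI counts per library, made with Cell Ranger 8.0.1 on mm10 per the file headers and the submitters' processing notes; libraries were 10x 3' GEM-X v4 per the labels' protocols. The gene annotation release and strand setting are not given in the sources used here. From these counts, UMIs of member cells were summed per library and tested with edgeR 4.0.16 (filterByExpr, TMM, glmQLFTest, Benjamini-Hochberg at 0.05; R 4.3.3), with DESeq2 1.42.0 as an alternative. In every sentence with an adjusted p the method is this edgeR test. Interaction tests kept the library as a term. CPM are the gene's UMIs per 1000000 UMIs of the summed cells. Shares were compared with exact permutation tests (scipy 1.17.1). Doublets were marked by similarity to simulated pairs at 0.4% per 1000 barcodes.

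The members, the gene lists and the tests were chosen with earlier results of these data known. The narrower set, and its alternatives, were chosen after seeing the data. Genes are named by a rule. It takes the 12 higher and 12 lower called genes with the largest change and no overlap, and the 10 leading levels. Of each list it takes up to 4 called genes or, where none was called, the 2 of smallest p, and 5 of each interaction test. Most exceptions are marked as singled out. Gli1, Myh11, Acta2 and Des were also singled out, and other genes are named because they were called in all 6 fits that left out a library. On counts simulated for all members (12476 genes tested), 77% of 100 genes changed 1 log2 unit and 92% of 100 changed 2 units were called. There were 19 false calls, a larger share of all calls than the threshold of 0.05 aims at. Nothing was simulated for the narrower set, which has fewer cells, so its power and error were not measured. Replicate numbers gave correlations that cannot decide whether they pair the libraries, and the main fits used no block. Where annotated genes overlap (for example Fgf2 with Nudt6 and Cacna1c with Dcp1b), reads could be split. Gene positions come from GENCODE vM21 (GRCm38), which held 30934 of 31054 feature identifiers, promoter sequences from RefSeq (GRCm38.p6). Left out are other cell types and any test between cells.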

Additional observations from a re-analysis of the deposited data

Results flagged for a closer look

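The results below had another difference between libraries labelled p16-DTR and controls in Hhip fibroblasts than in alveolar fibroblasts, by edgeR's interaction test with the library as a term. Over all members, the differences of the log2 changes were -10.17 for Actc1, -4.59 for Nxph1 and 0.93 for Myo1f (adjusted p = 0.00722, 0.0125 and 0.0331). In the narrower set they were 1.34 for March3, -2.08 for P3h2, -10.91 for Actc1, 1.26 for Myo1f and -1.28 for Ccbe1 (adjusted p = 0.00509, 0.00509, 0.0070, 0.0070 and 0.00864). Actc1 rested on 20 control cells, and in alveolar fibroblasts it stood at 8.77, 0.43 and 0.172 CPM against 0.28, 0.227 and 0.368, so a single library labelled p16-DTR was high there. Myo1f stood at 81.8, 110 and 74.0 against 79.3, 45.4 and 67.6 in all members and at 60.9, 79.7 and 48.7 against 108, 67.4 and 79.9 in alveolar fibroblasts, with overlap between groups in both. In the narrower set it stood at 104, 168 and 122 against 96.8, 58.2 and 72.0, with no overlap. Actc1 and Nxph1 were counted in the members almost only in controls.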

How the results depend on the processing

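The lower share of members in libraries labelled p16-DTR kept its direction in every alternative run, but its size did not hold: the difference of -0.448 percentage points ranged from -0.787 without p16-DTR replicate 1 to -0.134 without control replicate 1, and the exact permutation p from 0.2 to 1.0. The genes called over all members, 0, became 391 with no filter on low counts, 179 with DESeq2, 5 with the stricter rule, 31 with Myh11 and Des at most 1, 161 in the narrower set and 0 to 41 when 1 library was left out. The 161 called in the narrower set became 854 with no filter, 299 with DESeq2, 15 without cells of the smooth muscle rule and 15 to 262 when 1 library was left out. With library size alone the count stayed at 161, of which 58 were higher and 103 lower. The 3 genes that differed from alveolar fibroblasts became 188 with no filter, 128 in the narrower set and 1 to 16 when 1 library was left out, and the 0 that differed from smooth muscle became 33 with no filter. Ccbe1 (0.16), Cdkn1a (-0.18) and Myo1f (-0.20) changed sign over all members with Myh11 and Des at most 1, Cdkn1a (-0.042) and Hbegf (-0.33) without p16-DTR replicate 1, and Hbegf also without control replicate 3 (-0.13) and in the narrower set (-0.41); none of these was called. Left out 1 library at a time, Cdkn1a ranged from -0.042 to 0.25 and Hbegf from -0.33 to 0.42. The cause was not tested. The replicate block, with the label's number as a term, called 5 genes over all members and 328 in the narrower set. Over all members, same-numbered libraries correlated at -0.119, -0.0839 and 0.00277 in their deviations from the group means, and not every library correlated best with its own number. In the narrower set the same correlations were 0.0934, -0.0126 and 0.0155. In that set only same-numbered libraries were compared. With so few libraries per group, these correlations cannot decide whether the numbers pair the libraries. With 79 to 185 cells per library in the narrower set, genes of few UMIs were measured with wide error.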
